A study of Homo sapiens
Mus musculus with 25 samples.

Results

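The 10 genes described here are mRNA readouts of the extracellular signal-regulated kinase (ERK) pathway: the dual-specificity phosphatases DUSP5 and DUSP6, the Sprouty family inhibitors SPRY2, SPRY4 and SPRED1, the ETS transcription factors ETV4 and ETV5, PHLDA1, and the early transcription factors EGR1 and FOSL1. They were chosen by name, as rows of the deposited count table, out of 38128 genes. All 10 were among the 18823 genes with enough counts to be tested.

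The samples were 25 tumours grown from HT29 cells, a human colorectal cancer line with an activating BRAF mutation, under the skin of nude mice, which lack mature T cells. Per the study's methods, the mice received doxycycline in their drinking water. WT tumours (n = 5) came from unedited cells. PTPRK KO tumours (n = 5) came from a pool of cells in which the receptor tyrosine phosphatase gene PTPRK had been disrupted with Cas9 and which carried a doxycycline-inducible green fluorescent protein, tGFP. The 3 other groups carried inducible PTPRK on the same knockout background: the normal protein (PTPRK, n = 6), the R1095Q mutant of the catalytic arginine (PTPRK.RQ, n = 4) and the C1089S mutant of the catalytic cysteine (PTPRK.C1089S, n = 5). Per those methods, the cells carrying the constructs were selected as sorted pools for tGFP. The methods do not describe the PTPRK.C1089S group, so its mice, doxycycline, inducible construct and sorting are taken to be the same. Each group is thus 1 engineered line measured in several tumours, and a difference between groups can hold a difference between lines. The comparisons asked how the mRNA of each gene differed when PTPRK was lost, and when normal or mutant PTPRK was put back.

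In the ERK pathway, RAS proteins activate RAF kinases, which activate MEK and then ERK, and ERK switches on transcription of a set of target genes. Part of that set restrains the pathway: DUSP proteins remove phosphate from ERK, and Sprouty and Spred proteins act on the steps between receptors and RAF. In cells with mutant BRAF the cascade is driven from RAF downwards, and the mRNA of these genes is widely used as a readout of pathway output. The mRNA levels below are not measurements of ERK activity.

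Library totals ranged from 43727372 to 59355464 counts. Values below are CPM (counts scaled to 1000000 per library, on normalised library sizes), and fold changes and p-values come from the edgeR quasi-likelihood test, adjusted by Benjamini-Hochberg over all 18823 tested genes. A gene was called at an adjusted p below 0.05, and errors of log2 fold changes are standard errors. PTPRK mRNA averaged 315 CPM ± 13.2 (SD, n = 5) in WT, 45.2 ± 19.2 (SD, n = 5) in PTPRK KO, 1853 ± 354 (SD, n = 6) in PTPRK, 1298 ± 308 (SD, n = 4) in PTPRK.RQ and 1507 ± 269 (SD, n = 5) in PTPRK.C1089S tumours. The re-expressing tumours thus held more PTPRK mRNA than WT tumours in every case. The host cells were of the mouse, and the counts are of reads mapped to the human genome. Host transcripts enter them only where they also map to human genes, so host marker values do not measure the amount of host tissue. Mouse reads could enter the counts of the 10 genes in the same way, which was not tested. Of 20 marker genes for stromal, endothelial and myeloid cells of the host, 8 did not pass the count filter and were at or below 0.326 CPM in every tumour. Apart from LYZ, which intestinal epithelium also makes, the host markers summed to between 76.1 and 109 CPM per tumour, while 10 colon epithelial markers summed to between 13410 and 19788 CPM. These sums moved with the groups: the host sum was 76.1 to 98.5 CPM in PTPRK KO and 99.8 to 107 CPM in PTPRK.C1089S tumours, without overlap, beside 90.2 to 107 in PTPRK, 84.0 to 109 in PTPRK.RQ and 88.7 to 107 in WT tumours. The epithelial sum was 17374 to 19788 CPM in WT tumours, above all PTPRK KO (14753 to 16881) and PTPRK.RQ (14065 to 17153) tumours, and overlapped with PTPRK (13410 to 17558) and PTPRK.C1089S (14971 to 18616). Of the 12 host markers tested, 3 were called higher and 2 lower in PTPRK against PTPRK KO, beside 28.6% of all tested genes in either direction. PTPRK.RQ against PTPRK KO called 1 higher and 0 lower, beside 19.1% of all tested genes. PTPRK.C1089S against PTPRK KO called 2 higher and 0 lower, beside 16.2%. The part of these shifts in the results below was not tested. In bulk tumour RNA, fewer cells transcribing a gene and less RNA per cell cannot be told apart.

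**Figure D1:**
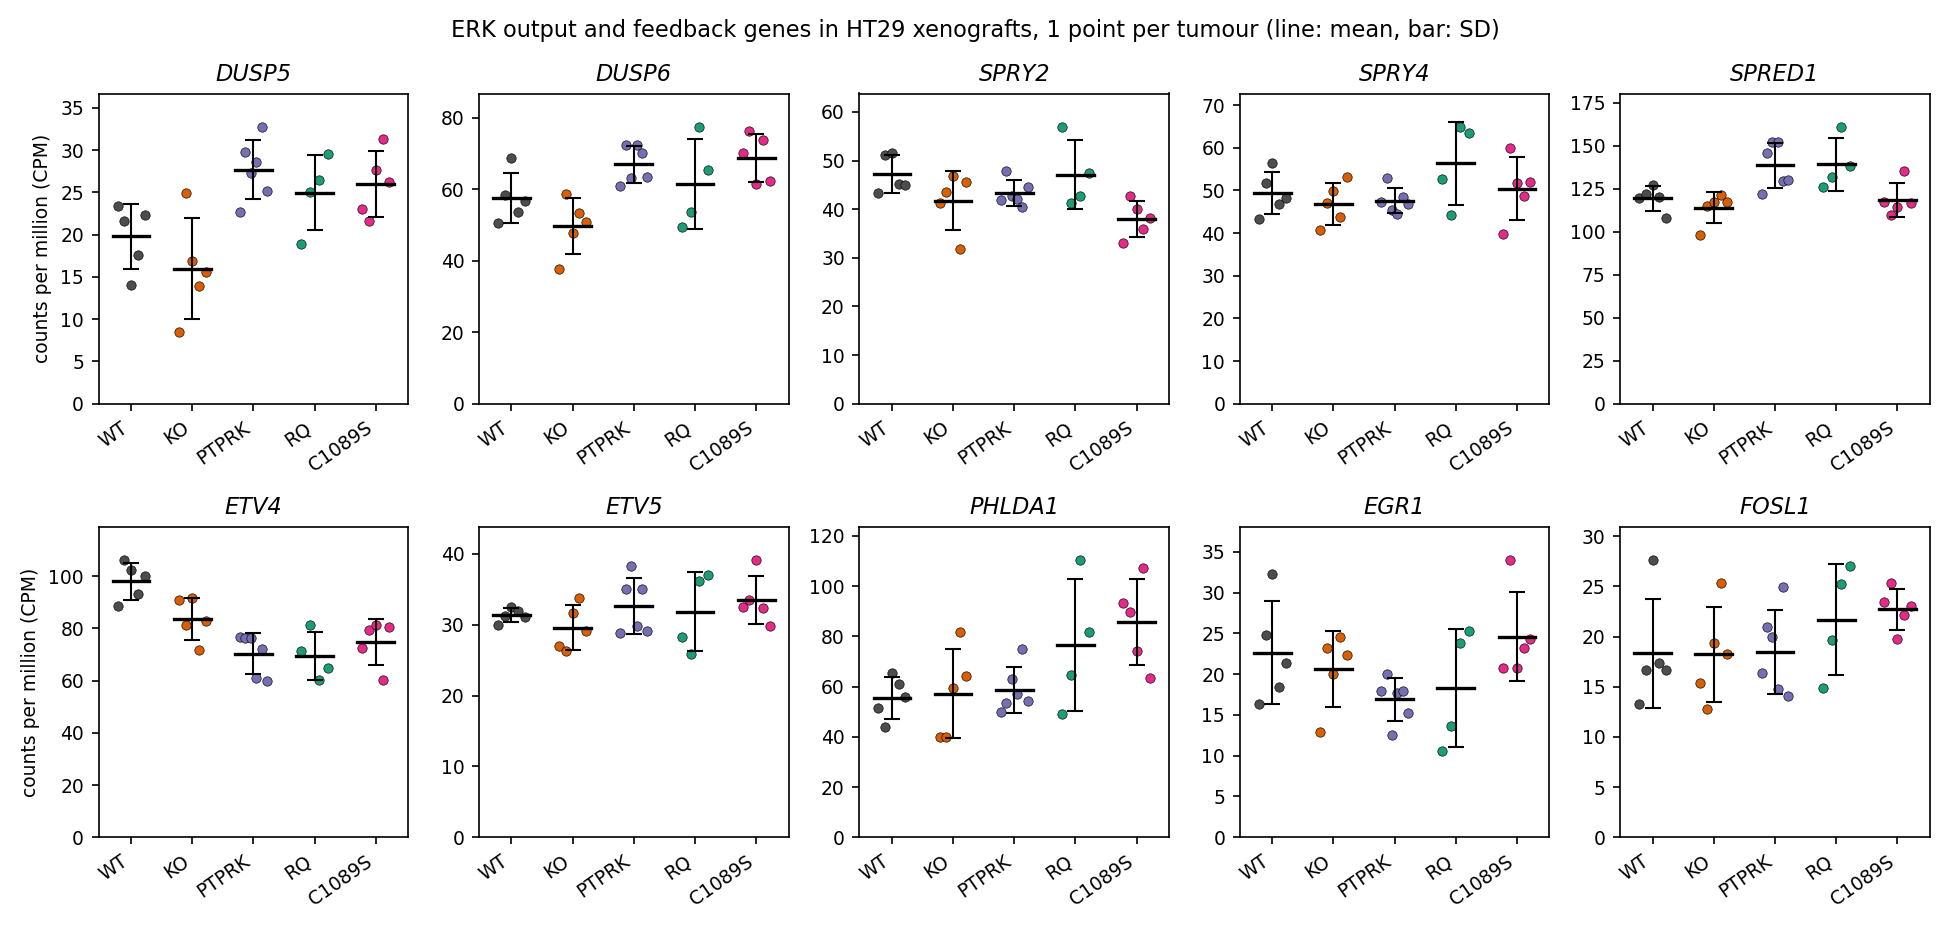
Expression of the 10 genes in CPM (vertical axis, from 0) in WT, PTPRK KO (KO), PTPRK, PTPRK.RQ (RQ) and PTPRK.C1089S (C1089S) tumours. Each point is 1 tumour, the wide line is the group mean and the bar is the SD. DUSP6 was above 60 CPM in all 6 PTPRK tumours and below 60 CPM in all 5 PTPRK KO tumours, whereas SPRY4 overlapped between all groups.

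Loss of PTPRK was accompanied by no called change among the 10 genes. PTPRK KO against WT called 0 of 10, beside 2% of all tested genes. ETV4 had the smallest unadjusted p, 0.023, with edgeR, and was the 1 gene of the 10 below an unadjusted p of 0.05. DESeq2 likewise called 0. The log2 fold changes ran from -0.31 for DUSP5 to 0.04 for PHLDA1, with a median of -0.11 beside 0.01 over all tested genes, and 9 of 10 were below 0. No gene of the 10 separated the tumours of the 2 groups without overlap, beside 5.82% of all tested genes that did.

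Of the 3 comparisons with PTPRK KO, putting normal PTPRK back gave the most calls, among the 10 genes as over all tested genes. In PTPRK against PTPRK KO, 4 of 10 genes were called, beside 28.6% of all tested genes: DUSP5, DUSP6 and SPRED1 were higher, beside 14.1% of tested genes called higher, and ETV4 was lower, beside 14.5% called lower. DUSP6 and SPRED1 did not overlap between the groups, beside 13.2% of tested genes. The median log2 fold change was 0.05 for the 10 genes and 0.02 for all tested genes. PTPRK.RQ against PTPRK KO called 2 of 10, DUSP5 and SPRED1, beside 19.1% of tested genes in either direction and 9.46% called higher. SPRED1 was the 1 gene of the 10 without overlap there, beside 15.3% of tested genes. PTPRK.C1089S against PTPRK KO called 2 of 10, DUSP5 and DUSP6, beside 16.2% in either direction and 8.89% called higher. DUSP6 was the 1 gene without overlap, beside 10.4% of tested genes. All 3 use the same PTPRK KO tumours, so a low or high value in 1 of those 5 tumours enters each of them.

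**Figure D2:**
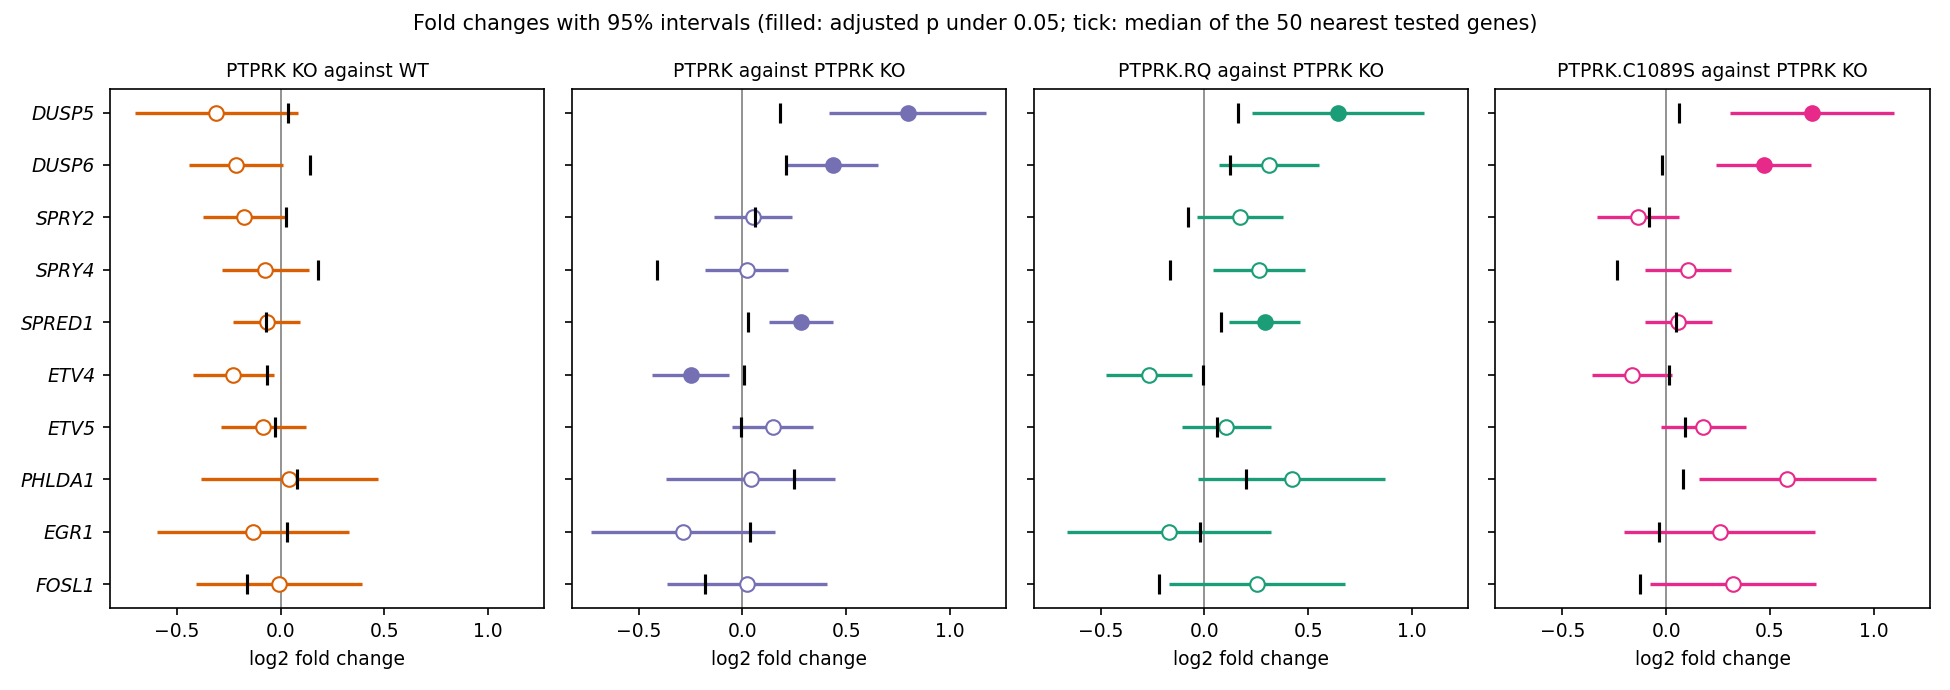
Log2 fold changes of the 10 genes (horizontal axis) with 95% intervals in PTPRK KO against WT and in each re-expressing group against PTPRK KO. Filled points have an adjusted p under 0.05, and the black tick is the median of the 50 nearest tested genes on the same chromosome. DUSP5 lies to the right of 0 in all 3 comparisons with PTPRK KO, at 0.80, 0.65 and 0.70, and ETV4 lies to the left of 0 in all 4 panels.

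DUSP5 encodes a nuclear phosphatase that binds and dephosphorylates ERK, and its own transcription is switched on by ERK. The gene (ENSG00000138166) lies on the plus strand at chr10:110497907-110511533 in GRCh38, and no other row of the table overlaps it. In PTPRK KO tumours DUSP5 stood at 8.46, 24.9, 16.9, 13.9 and 15.6 CPM. In PTPRK tumours it ranged from 22.7 to 32.8 CPM with a median of 27.9. The groups overlapped through PTPRK KO replicate 2, at 24.9 CPM, which was above 1 PTPRK tumour. DUSP5 was 1.74-fold higher in PTPRK than in PTPRK KO tumours, a log2 fold change of 0.80 ± 0.18 with an adjusted p of 0.00275.

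The mutant proteins gave DUSP5 values in the same range. PTPRK.RQ tumours held 18.9, 25.1, 26.4 and 29.5 CPM of DUSP5, a log2 fold change of 0.65 ± 0.20 over PTPRK KO with an adjusted p of 0.0254. PTPRK.C1089S tumours held 23.1, 21.6, 27.7, 31.3 and 26.3 CPM, a log2 fold change of 0.70 ± 0.19 with an adjusted p of 0.0119. Both groups overlapped with PTPRK KO through the same replicate 2. The PTPRK.RQ call was lost without PTPRK KO replicate 1 or 4 and without PTPRK.RQ replicate 3 or 4, at adjusted p-values up to 0.0937, without the filter on low counts (0.0566) and with only the 2 groups fitted (0.13). The PTPRK.C1089S call for DUSP5 was also lost with only the 2 groups fitted (0.0578). Neither mutant group was called against PTPRK: the log2 difference was -0.15 for PTPRK.RQ, with a 95% interval from -0.55 to 0.25, and -0.09 for PTPRK.C1089S, with a 95% interval from -0.46 to 0.28.

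WT tumours lay between, at 23.3, 21.7, 14.1, 17.6 and 22.3 CPM of DUSP5, and were not called against PTPRK KO (log2 fold change -0.31 ± 0.19 for PTPRK KO against WT, adjusted p = 0.489). Against WT, PTPRK tumours were called higher at 0.49 ± 0.18 (adjusted p = 0.0405). PTPRK.RQ against WT gave an adjusted p of 0.225 and PTPRK.C1089S against WT an adjusted p of 0.175. In the order of group means from PTPRK through PTPRK.C1089S, PTPRK.RQ and WT to PTPRK KO, no pair of neighbouring groups was called. The 50 tested genes nearest to DUSP5 had median log2 fold changes of 0.18, 0.16 and 0.06 over PTPRK KO in PTPRK, PTPRK.RQ and PTPRK.C1089S.

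DUSP6 encodes the cytoplasmic ERK phosphatase and is among the most direct transcriptional readouts of the pathway. It (ENSG00000139318) lies on the minus strand at chr12:89347235-89352501 and overlaps AC024909.1 on the plus strand, whose counts came to 29.6% of the DUSP6 counts. Counting took no account of strand, so reads of the 2 genes cannot be told apart where they overlap. PTPRK KO tumours held 37.7, 58.6, 47.7, 53.5 and 50.8 CPM of DUSP6, whereas PTPRK tumours held 61.0 to 72.5 CPM with a median of 66.8. All 6 PTPRK tumours were above all 5 PTPRK KO tumours. DUSP6 was 1.35-fold higher, a log2 fold change of 0.43 ± 0.11 with an adjusted p of 0.00378.

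PTPRK.C1089S tumours showed the same separation for DUSP6, at 70.1, 76.4, 61.4, 73.7 and 62.2 CPM. Their log2 fold change over PTPRK KO was 0.47 ± 0.11, with an adjusted p of 0.00364. PTPRK.RQ tumours were split, with replicates 1 and 2 at 49.6 and 53.7 CPM, inside the PTPRK KO range, and replicates 3 and 4 at 77.5 and 65.5 CPM, above it. The difference of PTPRK.RQ from PTPRK KO, 0.31 ± 0.12, was not called (adjusted p = 0.0629), but was without PTPRK KO replicate 2 (0.0273) and without PTPRK.RQ replicate 1 (0.0237) or 2 (0.0343). The test of PTPRK.RQ against PTPRK for DUSP6 gave -0.12, with a 95% interval from -0.36 to 0.11, so the lack of a call in 1 comparison and its presence in the other do not amount to a difference between the 2 proteins.

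WT tumours held 50.5, 58.3, 68.9, 53.7 and 56.8 CPM of DUSP6. They overlapped with every other group, and neither PTPRK (0.22, adjusted p = 0.109) nor PTPRK.C1089S (0.25, adjusted p = 0.126) was called against them. For the 50 tested genes nearest to DUSP6 the median was 0.21 with PTPRK and -0.02 with PTPRK.C1089S, each relative to PTPRK KO. AC024909.1 itself changed by 0.25 (adjusted p = 0.0907) and 0.37 (adjusted p = 0.0315) in these comparisons.

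SPRED1 encodes a membrane-bound inhibitor that brings neurofibromin to RAS. It (ENSG00000166068) lies on the plus strand at chr15:38252836-38357249 with no overlapping row. SPRED1 stood at 98.2, 115, 118, 122 and 117 CPM in PTPRK KO tumours and at 122 to 152 CPM, with a median of 138, in PTPRK tumours. It was at 126, 132, 161 and 138 CPM in PTPRK.RQ tumours. Every PTPRK and every PTPRK.RQ tumour was above every PTPRK KO tumour, although the lowest PTPRK and the highest PTPRK KO tumour differed by less than 1 CPM.

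The size of the SPRED1 difference was small and nearly equal in both groups. The log2 fold change over PTPRK KO was 0.28 ± 0.08 in PTPRK tumours (adjusted p = 0.00684) and 0.29 ± 0.08 in PTPRK.RQ tumours (adjusted p = 0.0141). In PTPRK.C1089S tumours SPRED1 stood at 117, 110, 114, 135 and 116 CPM, overlapping PTPRK KO, with a log2 fold change of 0.06 ± 0.08 and a 95% interval from -0.10 to 0.22 (adjusted p = 0.696). Tested directly, SPRED1 was lower in PTPRK.C1089S than in PTPRK tumours by a log2 fold change of -0.22 ± 0.08 with an adjusted p of 0.0477. SPRED1 was the 1 gene of the 10 called in PTPRK.C1089S against PTPRK, beside 13.2% of tested genes in either direction and 5.76% called lower. This call lay close to the threshold and was kept in 9 of 30 other settings, with adjusted p-values from 0.00847 to 0.161. Those were DESeq2, the replicate block and the fits without PTPRK.C1089S replicate 4, PTPRK KO replicate 4, PTPRK replicate 1 or 5, or PTPRK.RQ replicate 1, 2 or 3. Against PTPRK.RQ the difference of PTPRK.C1089S was -0.23 ± 0.08 and was not called (adjusted p = 0.101).

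WT tumours were near PTPRK KO for SPRED1, at 120, 122, 127, 120 and 108 CPM. PTPRK tumours were called higher than WT, by 0.21 ± 0.08 (adjusted p = 0.0278), and PTPRK.RQ tumours missed the threshold at 0.22 ± 0.08 (adjusted p = 0.0503). The median over the 50 nearest tested genes was 0.03 for PTPRK and 0.08 for PTPRK.RQ, each against PTPRK KO.

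SPRY2 and SPRY4 encode Sprouty proteins, which are made in response to growth factor signalling and dampen it upstream of ERK. SPRY2 (ENSG00000136158, chr13:80335976-80341126, minus strand) was between 40.4 and 47.9 CPM in PTPRK tumours and between 31.8 and 46.8 CPM in PTPRK KO tumours. It gave a log2 fold change of 0.05 with a 95% interval from -0.14 to 0.24 (adjusted p = 0.718), so the interval leaves out a rise as large as that of DUSP6 in the same tumours.

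The lowest mean of SPRY2 was in PTPRK.C1089S tumours, at 33.0, 42.7, 40.1, 36.0 and 38.3 CPM, and all 5 were below all 5 WT tumours, at 43.4, 51.2, 51.6, 45.2 and 45.0 CPM. The log2 fold change of PTPRK.C1089S against WT was -0.31 ± 0.10 with an adjusted p of 0.0271. SPRY2 in PTPRK.C1089S was also -0.31 ± 0.10 against PTPRK.RQ, which was not called (adjusted p = 0.0719), and -0.14 ± 0.10 against PTPRK KO (adjusted p = 0.388).

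SPRY4 (ENSG00000187678, chr5:142310427-142326455, minus strand) was called in none of the 10 pairs of groups tested. PTPRK and PTPRK KO tumours held 44.5 to 52.9 CPM and 40.7 to 53.2 CPM of it, and the log2 fold change was 0.02 with a 95% interval from -0.18 to 0.22. The 50 tested genes nearest to SPRY4 had a median of -0.41 in this comparison, of -0.17 in PTPRK.RQ and of -0.24 in PTPRK.C1089S against PTPRK KO, so SPRY4 stood above the middle of its neighbours in each. In PTPRK.RQ tumours SPRY4 was at 52.6, 44.4, 64.9 and 63.4 CPM, and its difference from PTPRK KO, 0.26 ± 0.11, was not called (adjusted p = 0.0849).

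ETV4 and ETV5 encode ETS transcription factors of the PEA3 group, whose transcription follows ERK activity and which carry part of the response. ETV4 was the 1 gene of the 10 called lower when normal PTPRK was put back. It (ENSG00000175832) lies on the minus strand at chr17:43527844-43579620 and overlaps DHX8 on the plus strand, whose counts came to 80.2% of those of ETV4. DHX8 was not called in any pair of groups, and its log2 fold change in PTPRK against WT was -0.04. WT tumours had the highest mean of ETV4, at 88.5, 106, 102, 93.1 and 99.9 CPM. PTPRK KO tumours held 91.0, 81.1, 91.6, 71.8 and 82.8 CPM, overlapping with WT, and the log2 fold change of PTPRK KO against WT was -0.23 ± 0.09 (adjusted p = 0.254).

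All 3 re-expressing groups were below WT for ETV4 without overlap. PTPRK tumours ranged from 59.8 to 76.8 CPM with a median of 74.2, a log2 fold change of -0.48 ± 0.09 against WT (adjusted p = 0.000392). PTPRK.RQ tumours held 71.5, 81.4, 60.4 and 64.8 CPM, a log2 fold change of -0.49 ± 0.10 (adjusted p = 0.00106). PTPRK.C1089S tumours held 72.4, 79.3, 81.3, 60.1 and 80.4 CPM, a log2 fold change of -0.39 ± 0.09 (adjusted p = 0.00579). Groups without overlap were common in these comparisons, with 19.3% of tested genes in PTPRK against WT, 21.1% in PTPRK.RQ against WT and 11.9% in PTPRK.C1089S against WT, and the 3 comparisons share the WT tumours.

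Against PTPRK KO the ETV4 differences were smaller and the groups overlapped. The log2 fold change was -0.25 ± 0.09 in PTPRK tumours, which was called at an adjusted p of 0.0384. It was -0.27 ± 0.10 in PTPRK.RQ tumours (adjusted p = 0.0618) and -0.16 ± 0.09 in PTPRK.C1089S tumours (adjusted p = 0.274), neither of which was called. The PTPRK call was lost in 6 of 31 other settings, with the 19 tumours left after dropping PTPRK.C1089S and PTPRK replicate 6 (adjusted p = 0.0739), without PTPRK KO replicate 1, 3 or 5 and without PTPRK replicate 4 or 6, with adjusted p-values up to 0.106. The PTPRK.RQ difference, of about the same size, was called in 5 of 31: with those 19 tumours (0.0383), with the replicate block (0.0291), and without PTPRK KO replicate 4, PTPRK.C1089S replicate 4 or PTPRK.RQ replicate 2 (0.0186 to 0.0349). The 50 nearest tested genes had medians of 0.01, -0.01 and 0.01 in the 3 comparisons with PTPRK KO.

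ETV5 (ENSG00000244405, chr3:186046314-186110318, minus strand) showed no called difference in any of the 10 pairs of groups. Its tumours lay between 25.9 and 39.1 CPM, and the 5 WT tumours between 30.0 and 32.5 CPM. The log2 fold change in PTPRK against PTPRK KO was 0.15 with a 95% interval from -0.05 to 0.34, so the ETV4 and ETV5 estimates had opposite signs in the same tumours.

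PHLDA1 encodes a pleckstrin homology-like protein that growth factors and ERK signalling induce. It (ENSG00000139289) lies on the minus strand at chr12:76025447-76033932, and the counts of 2 overlapping plus-strand rows, AC011611.3 and AC011611.4, came to 20.1% of its own. Reads of PHLDA1 and these rows cannot be told apart where they overlap. AC011611.3 was called in no pair of groups, but its deviations from the group means correlated with those of PHLDA1 at 0.95 over the 25 tumours. PTPRK.C1089S tumours had the highest mean of PHLDA1, at 93.5, 89.8, 74.0, 107 and 63.5 CPM. PTPRK tumours held 49.8 to 75.1 CPM with a median of 55.5, and PTPRK KO tumours 40.0, 39.9, 59.6, 81.9 and 64.3 CPM. WT tumours held 51.4, 43.8, 65.3, 60.9 and 55.9 CPM.

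PHLDA1 was called in 1 pair of groups, PTPRK.C1089S against WT, at a log2 fold change of 0.63 ± 0.21 (adjusted p = 0.0444). The differences of PTPRK.C1089S from PTPRK KO, 0.58 ± 0.21 (adjusted p = 0.0563), and from PTPRK, 0.54 ± 0.20 (adjusted p = 0.0663), were not called. With DESeq2 both were called, at adjusted p-values of 0.0405 and 0.0439. Of 30 other settings, the difference from PTPRK KO was called in 7, with adjusted p-values up to 0.148. The difference from PTPRK was called in 5 of 30, with adjusted p-values up to 0.135. In PTPRK against PTPRK KO the log2 fold change was 0.04 with a 95% interval from -0.37 to 0.45. PTPRK.RQ tumours spread from 49.0 CPM in replicate 1 to 110 CPM in replicate 3.

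EGR1 and FOSL1 stand at opposite ends of the response in time: EGR1 is a zinc finger factor induced within minutes of ERK activation, and FOSL1 encodes the AP-1 subunit FRA1, which accumulates under sustained signalling. EGR1 (ENSG00000120738, chr5:138465479-138469303, plus strand) was called in no pair of groups. PTPRK tumours held 12.5 to 20.1 CPM with a median of 17.9, below all PTPRK.C1089S tumours, at 20.8, 34.0, 20.8, 23.2 and 24.3 CPM. This was the 1 gene of the 10 without overlap in PTPRK.C1089S against PTPRK, beside 3.42% of tested genes, but its log2 fold change of 0.54 ± 0.21 missed the threshold (adjusted p = 0.0885). It was called in 1 of 30 other settings, with only the 2 groups fitted (0.0278). EGR1 in PTPRK against PTPRK KO gave -0.29 with a 95% interval from -0.73 to 0.16.

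FOSL1 (ENSG00000175592, chr11:65892049-65900573, minus strand) was called in no pair of groups either. PTPRK.C1089S tumours held 19.7 to 25.3 CPM of FOSL1, PTPRK tumours 14.0 to 24.9, PTPRK KO tumours 12.8 to 25.3 and WT tumours 13.3 to 27.6. In PTPRK against PTPRK KO the log2 fold change was 0.02 with a 95% interval from -0.36 to 0.41.

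Between the re-expressing groups, calls among the 10 genes stayed near the share of all tested genes. PTPRK.RQ against PTPRK called 0 of 10 with edgeR and with DESeq2, beside 3.38% of tested genes, and 1 of 10, SPRY4, had an unadjusted p below 0.05 (0.0255). No gene of the 10 was free of overlap there, beside 4.75% of tested genes. PTPRK.C1089S against PTPRK.RQ called 0 of 10, beside 4.93%, with SPRY2 and SPRED1 at unadjusted edgeR p-values of 0.00488 and 0.00942. PTPRK.C1089S against PTPRK called 1 of 10, SPRED1, beside 13.2%, and 3 of 10 had an unadjusted p below 0.05. Against WT, PTPRK called 3 of 10 (DUSP5 and SPRED1 higher, ETV4 lower), beside 35.7% of tested genes. PTPRK.RQ against WT called 1 of 10 (ETV4 lower), beside 24.7%, and PTPRK.C1089S against WT called 3 of 10 (PHLDA1 higher, ETV4 and SPRY2 lower), beside 14.3%. PTPRK mRNA itself was not called between the re-expressing groups, with adjusted p-values of 0.224 for PTPRK.RQ and 0.312 for PTPRK.C1089S against PTPRK. Its estimate was nonetheless lower in PTPRK.RQ than in PTPRK tumours, at a log2 fold change of -0.51 (unadjusted p = 0.0241 with edgeR). The 95% interval of that difference, from -0.95 to -0.07, lay below 0. For PTPRK.C1089S against PTPRK it was -0.30, with a 95% interval from -0.71 to 0.11. The paper also reports lower expression of PTPRK.RQ than of PTPRK. Equal PTPRK mRNA in the PTPRK.RQ and PTPRK groups thus cannot be assumed.

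Tumours of 1 group differed widely in some of these genes. The SD of log2 CPM within groups, pooled over the 5 groups, was 0.32 for DUSP5, 0.34 for PHLDA1, 0.37 for EGR1 and 0.32 for FOSL1, against a median of 0.15 over the 10520 tested genes with a mean of at least 10 CPM. For each of these 4, fewer than 3% of those genes had a larger SD (1.68% for EGR1 and 2.98% for FOSL1). SPRED1, at 0.12, lay on the other side, with 69.7% of genes more variable.

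The deviations ran across genes in particular tumours. PTPRK KO replicate 1 was below its group mean for 9 of 10 genes and was the lowest of its group for 5. PTPRK.RQ replicates 1 and 2 were each below their group mean for 8 of 10 genes, and replicates 3 and 4 were each above it for 8 of 10. WT replicate 3 was the highest of its group for 8 genes and the lowest for DUSP5. Replicate 3 also held the most PTPRK mRNA of the 4 PTPRK.RQ tumours, at 1709 CPM, beside 1200.02, 971 and 1311 CPM in replicates 1, 2 and 4. The tumours with the most PTPRK mRNA elsewhere were PTPRK replicate 3, at 2275 CPM, and PTPRK.C1089S replicate 3, at 1774 CPM. Each of these was above its group mean for 5 of the 10 genes and below it for 5. A relation to PTPRK mRNA was not tested.

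**Figure D3:**
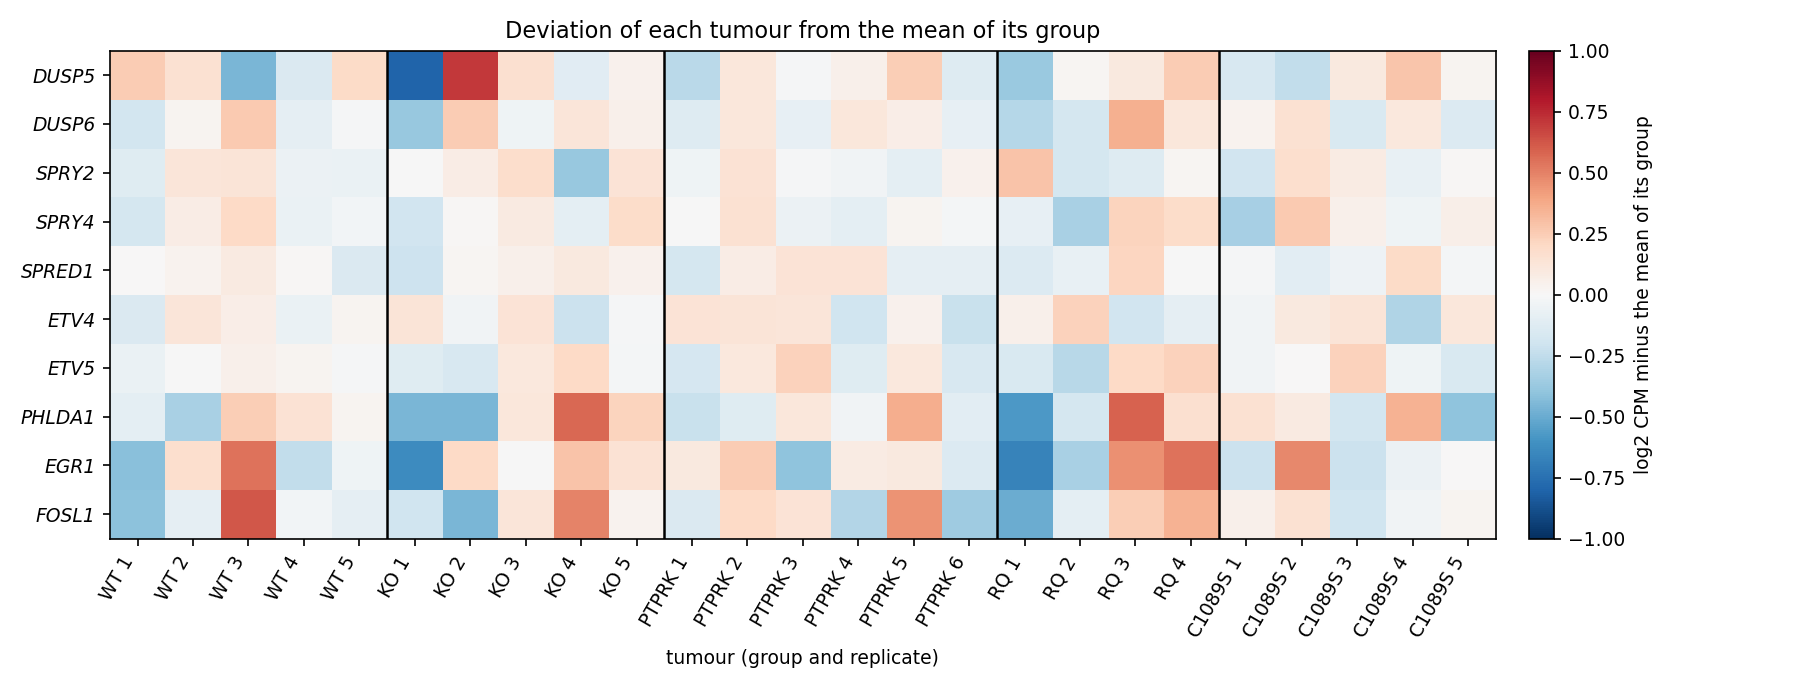
Deviation of each of the 25 tumours (columns, by group and replicate) from the mean log2 CPM of its group, for the 10 genes (rows). Red is above and blue below the group mean. KO replicate 1 is below the mean for 9 of 10 genes, and RQ replicates 1 and 2 are mostly blue where RQ replicates 3 and 4 are mostly red.

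These tumours weigh on the comparisons. Without PTPRK KO replicate 1, DUSP5, DUSP6 and SPRED1 were still called in PTPRK against PTPRK KO and ETV4 was not, while PTPRK.RQ against PTPRK KO called 0 of 10. Without PTPRK.RQ replicate 3 that comparison also called 0 of 10, with SPRED1 at an adjusted p of 0.122. Without PTPRK.RQ replicate 2 it called 5 of 10, the 2 above together with DUSP6, SPRY4 and ETV4. Calls over all tested genes moved the same way. PTPRK.RQ against PTPRK KO called 3603 genes with all tumours and 2647 without PTPRK KO replicate 1. It called 2592 without PTPRK.RQ replicate 3 and 4207 without PTPRK.RQ replicate 2. PTPRK against PTPRK KO called 5381 genes with all tumours and 3679 without PTPRK KO replicate 1.

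Across the 25 deviations, the 45 pairs of the 10 genes had Pearson correlations from -0.49 to 0.86, with a median of 0.35, and 32 were positive. The highest were DUSP6 with EGR1, at 0.86, SPRY4 with EGR1, at 0.75, and PHLDA1 with FOSL1, at 0.73. The lowest were ETV4 with PHLDA1, at -0.49, and SPRED1 with ETV4, at -0.48. The points share libraries and tumour state, so the correlations are a description of these 25 tumours. Over all tested genes the median correlation with DUSP6 was -0.02. The 5 genes outside the 10 whose deviations were most like those of DUSP6 were AC024909.1 (0.86), which overlaps it, NAPEPLD (0.86), LRIF1 (0.85), OTULIN (0.84) and CCSAP (0.82), all over 25 tumours.

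Other genes of the pathway were counted over whole lists. Of 19 tested components of the ERK cascade, from RAS proteins to the ERK substrate kinases, PTPRK against PTPRK KO called 7 higher and 2 lower, beside 28.6% of all tested genes in either direction. RPS6KA3, the ERK-activated kinase RSK2, was higher by 0.45 ± 0.10 (adjusted p = 0.00124), and KSR1, a RAF and MEK scaffold, by 0.42 ± 0.08 (adjusted p = 0.000369). HRAS was lower, with a log2 fold change of -0.45 ± 0.10 (adjusted p = 0.00145). PTPRK.RQ against PTPRK KO called 2 cascade genes higher and 1 lower, beside 19.1% of tested genes, and PTPRK.C1089S against PTPRK KO called 0 higher and 1 lower, HRAS, beside 16.2%. In PTPRK.C1089S against PTPRK the calls were 2 higher and 2 lower, beside 13.2%, with BRAF at -0.34 ± 0.08 (adjusted p = 0.00934).

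Among 21 other ERK output genes the called changes went both ways. PTPRK against PTPRK KO called 5 higher and 4 lower (28.6% of all tested genes), PTPRK.RQ 4 higher and 3 lower (19.1% of all), and PTPRK.C1089S 6 higher and 2 lower (16.2% of all). ERRFI1, an inhibitor of EGF receptor family kinases, was higher by 0.70 ± 0.22 in PTPRK tumours (adjusted p = 0.0211) and by 0.76 ± 0.23 in PTPRK.C1089S tumours (adjusted p = 0.0235). In PTPRK.RQ tumours its difference, 0.64 ± 0.24, was not called (adjusted p = 0.0642). KCNN4, a calcium-activated potassium channel gene, was lower in PTPRK tumours, at -1.10 ± 0.21 (adjusted p = 0.000535), in PTPRK.RQ tumours, at -2.24 ± 0.25 (adjusted p = 9.72e-07), and in PTPRK.C1089S tumours, at -1.67 ± 0.23 (adjusted p = 1.35e-05). DUSP4, which encodes a nuclear phosphatase related to DUSP5 and DUSP6, was lower in PTPRK tumours, at -0.58 ± 0.12 (adjusted p = 0.000927), in PTPRK.RQ tumours, at -0.92 ± 0.14 (adjusted p = 1.92e-05), and in PTPRK.C1089S tumours, at -0.56 ± 0.13 (adjusted p = 0.00233), opposite to DUSP5 in each. The medians of the 50 tested genes nearest to DUSP4 were -0.34, -0.51 and -0.61.

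The immediate early genes, which respond to ERK and to other stimuli within minutes, were counted too. Of 14 tested, 0 were higher and 2 lower in PTPRK against PTPRK KO, with ZFP36 at -0.51 ± 0.11 (adjusted p = 0.002), and 0 were higher and 2 lower in PTPRK.RQ, beside 28.6% and 19.1% of all tested genes. PTPRK.C1089S against PTPRK KO called 3 higher and 1 lower, beside 16.2%, and PTPRK.C1089S against PTPRK called 4 higher and 0 lower, beside 13.2%. In the latter JUNB was higher by 0.60 ± 0.11 (adjusted p = 0.00134) and CCN1 by 0.75 ± 0.23 (adjusted p = 0.0328). The summed level of these genes ranged from 880 to 1017 CPM in PTPRK.C1089S, from 837 to 1022 CPM in PTPRK, from 727 to 949 CPM in PTPRK.RQ, from 824 to 1039 CPM in PTPRK KO and from 963 to 998 CPM in WT tumours. The part of whatever sets this summed level in the EGR1 values was not tested.

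**Figure D4:**
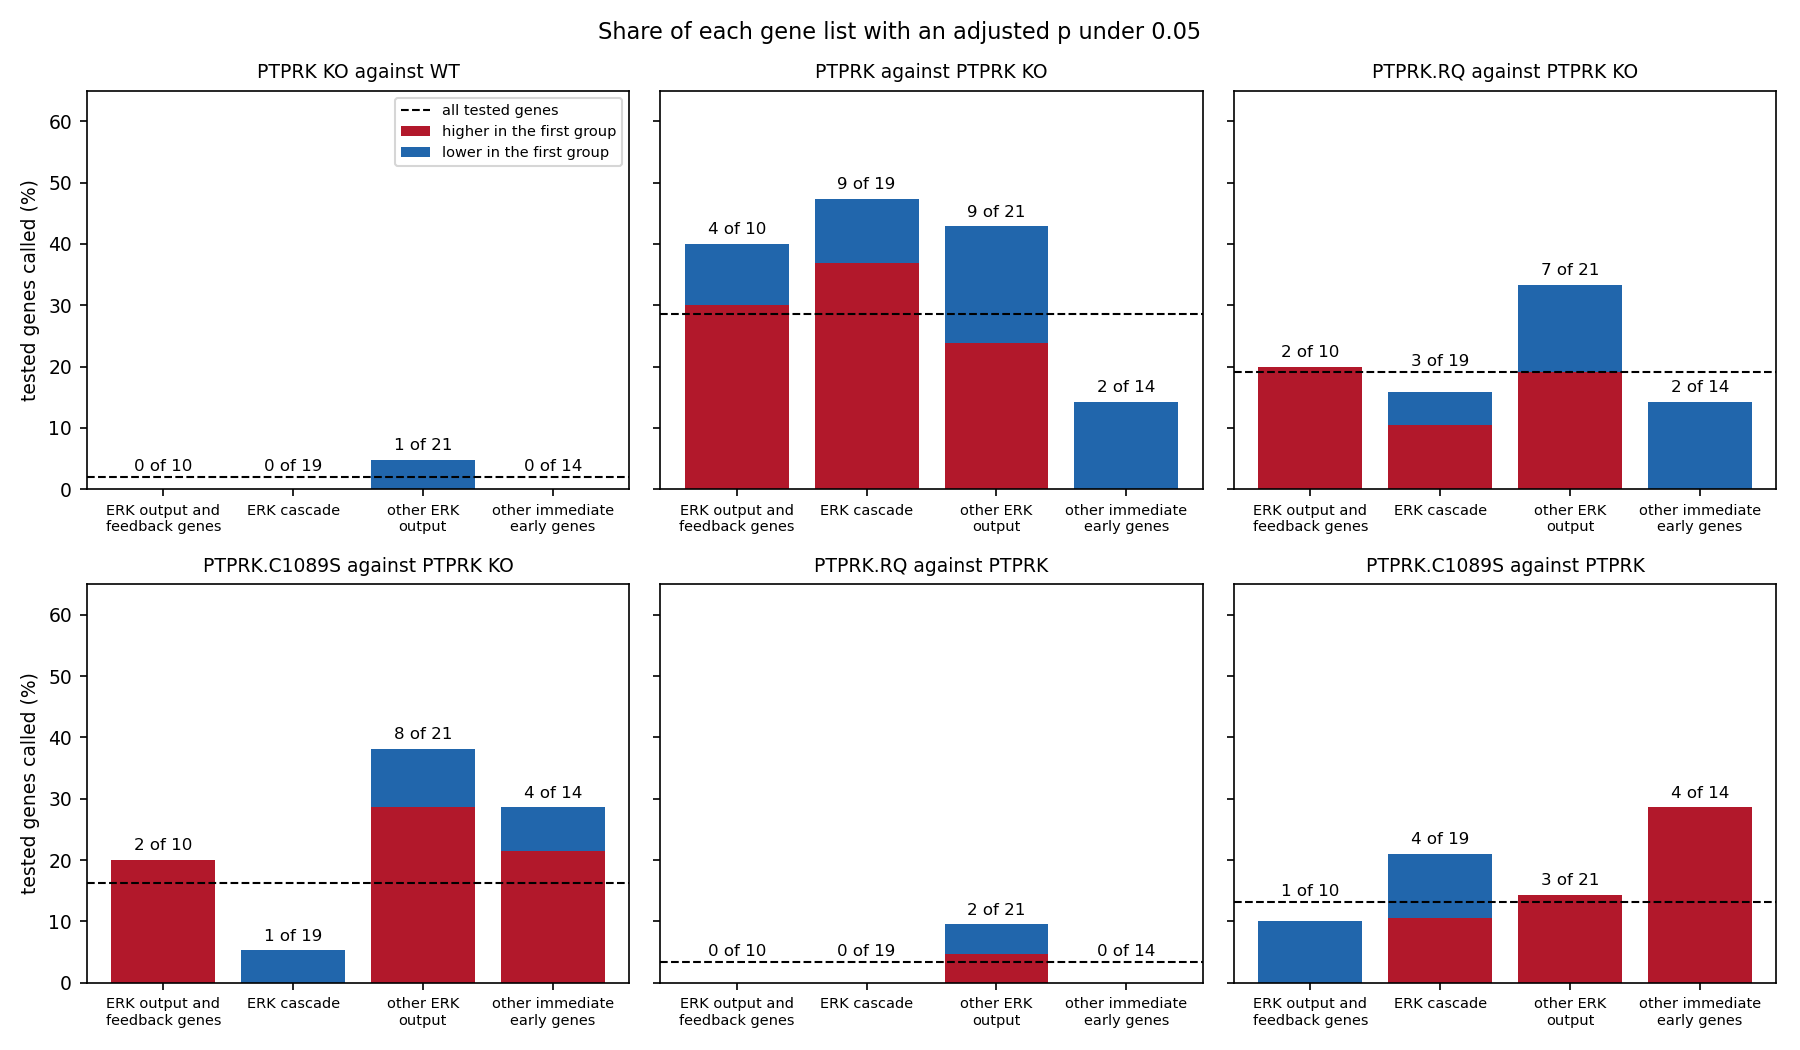
Share of tested genes with an adjusted p under 0.05 (vertical axis, percent) in the 10 ERK output and feedback genes and in 3 other lists, for 6 comparisons. Red is higher and blue lower in the first group named, and the dashed line is the share of all tested genes. In PTPRK against PTPRK KO the 10 genes stand at 4 called of 10 beside 28.6% of all genes, and in PTPRK.RQ against PTPRK at 0 of 10 beside 3.38%.

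The transcriptional repressors that ERK inactivates were counted as well. Of 4, CIC and ERF were lower in PTPRK against PTPRK KO, at -0.39 ± 0.08 (adjusted p = 0.00126) and -0.66 ± 0.12 (adjusted p = 0.000288), beside 28.6% of all tested genes. CIC, a repressor of ETV4, ETV5 and DUSP6, was also lower in PTPRK.RQ, at -0.38 ± 0.09 (adjusted p = 0.00531), as was ERF, at -0.58 ± 0.14 (adjusted p = 0.00322), beside 19.1%, and 0 of 4 were called in PTPRK.C1089S against PTPRK KO, beside 16.2%. The genes around them were lower too: over the 50 nearest tested genes the median was -0.43 for CIC and -0.41 for ERF with PTPRK, and -0.52 for CIC and -0.51 for ERF with PTPRK.RQ, each against PTPRK KO.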

How the data were processed

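RNA from snap-frozen xenografts was poly(A)-selected and sequenced. The authors trimmed the reads, mapped them with HISAT2 (version 2.1.0 per the labels' processing notes) to the human GRCh38 genome and, separately, to the mouse genome, dropped low-quality alignments, and deposited raw counts per human gene over exons, without regard to strand. Per-tumour library size factors, CPM and all tests below were computed here from those deposited counts. The table had 38179 rows, of which 51 with repeated identifiers were left out. Tumours were grouped by the genotype label.

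Counts were analysed in R 4.3.3 with edgeR 4.0.16: TMM factors, the default filter on low counts (18823 of 38128 genes kept), and 1 quasi-likelihood fit of all 25 tumours on group, with Benjamini-Hochberg adjustment over all tested genes and a threshold of 0.05. The study's own tool, DESeq2 (1.42.0 here), and other scalings, filters and sample sets were alternatives. The correlations used log2 (CPM + 0.5). The 95% intervals use the t distribution of the fit. The nearest 50 tested genes on the chromosome were taken without regard to their values. The scripts were tested on simulated data. Per the study's methods each mouse received 1 injection, so tumours of WT, PTPRK KO, PTPRK and PTPRK.RQ came from separate mice; those methods do not describe the PTPRK.C1089S tumours, whose spread may in part be technical. The 51 pairs of tumours within groups differed beyond counting noise (chi-square per gene 12.9 to 112), so no library was counted as a copy. Deviations of same-numbered tumours from different groups had a median correlation of 0.02, beside -0.02 for other numbers. The replicate number was therefore not used as a block in the main fit, although this does not exclude pairing of some tumours. No sequence of the genes or their lengths was used here, and levels are not compared between genes. The 10 genes and the other lists were chosen with earlier results of these data known. Named from the other lists were at most the 3 called genes with the largest change per comparison.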

Additional observations from a re-analysis of the deposited data

Results flagged for a closer look

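Each of the 10 genes was screened in each of the 5 groups for a tumour far from the others, 50 groups in all, and chance flags about 1 in 20. The screen flagged 1. SPRED1 in PTPRK KO replicate 1 stood at 98.2 CPM, with the other 4 PTPRK KO tumours between 115 and 122 CPM. The gap to the nearest tumour was 0.752 of the group's whole range, above the limit of 0.71 for 5 samples. The same tumour was the lowest of its group for 5 of the 10 genes. Without it, SPRED1 remained called in PTPRK against PTPRK KO, at an adjusted p of 0.0382, and lost its call in PTPRK.RQ against PTPRK KO.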

How the results depend on the processing

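PTPRK KO against WT and PTPRK.RQ against PTPRK called 0 of the 10 genes in every setting tried. Over all tested genes the calls ranged from 208 to 641 in the first and from 338 to 937 in the second. PTPRK against PTPRK KO called 4, and 3 to 4 on leaving out single tumours and 3 with the 19 tumours left after dropping PTPRK.C1089S and PTPRK replicate 6, where ETV4 was lost, and DUSP5, DUSP6 and SPRED1 were called in 31 of 31 other settings. PTPRK.RQ against PTPRK KO called 2, but 1 without the filter on low counts or with only the 2 groups fitted (DUSP5 lost), 3 with those 19 tumours (ETV4 gained), and 0 to 5 on leaving out a tumour. Over all tested genes it called 3107 without the filter, 3170 with only the 2 groups fitted and 4045 with those 19 tumours. PTPRK.C1089S against PTPRK KO called 2, but 1 with only the 2 groups fitted (DUSP5 lost), and 2 to 3 on leaving out a tumour. PTPRK.C1089S against PTPRK called 1, but 2 with DESeq2 (PHLDA1 gained) or with only the 2 groups fitted (PHLDA1 and EGR1 gained, SPRED1 lost), 0 without the filter or with RLE size factors, and 0 to 2 on leaving out a tumour. Over all tested genes it called 2493 in the main fit, 3164 with DESeq2 and 1303 with only the 2 groups fitted. It called 1845 without the filter and 2475 with RLE size factors. Calls over all tested genes also moved on leaving out a tumour. PTPRK against PTPRK KO ran from 3679 to 6058 and PTPRK.RQ against PTPRK KO from 2592 to 4207. PTPRK.C1089S ran from 2253 to 3158 against PTPRK KO and from 1005 to 5063 against PTPRK. The shifts in number were thus not particular to the 10 genes. The cause of these changes was not tested. The comparisons with WT of the re-expressing groups, used for the order of the groups, were made in the fit of all 25 tumours alone.

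The replicate block was fitted as an alternative. Over 46 same-numbered pairs of tumours from different groups, deviations correlated from -0.34 to 0.57 with a median of 0.02, beside -0.02 for other pairs. Of the 46, 21 were above 0.1, and 8 of 25 tumours matched their own number best. The number of such matches by chance was not computed. The numbers were not taken to pair the tumours, but pairing of some is not excluded. The block added ETV4 in PTPRK.RQ against PTPRK KO (3 called) and PHLDA1 in PTPRK.C1089S against PTPRK KO (3 called). It turned the sign of FOSL1 in PTPRK KO against WT (0.000575) and of SPRED1 in PTPRK.RQ against PTPRK (-0.024), the latter also with the 19 tumours (-0.010).

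On leaving out a tumour, log2 fold changes that were not called changed sign as follows. In PTPRK KO against WT, EGR1 ran from -0.23 to 0.027, FOSL1 from -0.15 to 0.18 and PHLDA1 from -0.12 to 0.15. In PTPRK against PTPRK KO, FOSL1 ran from -0.087 to 0.17, PHLDA1 from -0.068 to 0.21, SPRY2 from -0.034 to 0.094 and SPRY4 from -0.032 to 0.069. In PTPRK.RQ against PTPRK KO, EGR1 ran from -0.36 to 0.026. In PTPRK.RQ against PTPRK, EGR1 ran from -0.081 to 0.30, ETV4 from -0.11 to 0.035, ETV5 from -0.12 to 0.044 and SPRED1 from -0.078 to 0.051. In PTPRK.C1089S against PTPRK, ETV5 ran from -0.029 to 0.095.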

Other observations

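Further genes resembled single members of the 10 in their deviations from the group means over the 25 tumours. They were chosen after their values were seen, and the points share libraries. FOS was the gene outside the 10 most like DUSP5, with a Pearson correlation of 0.89. For ETV4 it was HNF4A, a transcription factor of intestinal epithelium, at 0.91, and for FOSL1 it was ITPKB, at 0.87.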
